A study of Mus musculus with 8 samples.

Results

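A set of 10 genes of fat storage was followed through mouse reprogramming cultures: Lpl, Pparg, Cebpa, Fabp4, Fabp5, Cd36, Plin2, Agpat2, Adipoq and Lipe. They were chosen by name, with earlier results of these data known. Each was read from the probe set with the highest mean over the 8 arrays among probe sets annotated with that single gene symbol. All 10 had such a probe set, out of 18193 genes represented on the array. The series used a secondary OSKM system of C57BL/6 background, in which Oct4, Sox2, Klf4 and Myc reprogram the cells after doxycycline is added. The labels call the material reprogramming cells and name no starting tissue. The 4 groups, with 2 arrays each, were cultures given DMSO or CSA and harvested on day 3 or on day 6. All 4 received doxycycline (written as 2 mg per ml), mouse embryonic stem cell medium with 15% serum and leukemia inhibitory factor at 100 units per ml. CSA, written as 10 mM, stands for cyclosporin A, an inhibitor of the phosphatase calcineurin and thereby of NFAT transcription factors, and DMSO is its solvent. Both doses are as the labels write them; whether milli or micro units were meant is not settled by the labels.

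Fat cells form when the C/EBP factors and the nuclear receptor PPAR gamma switch each other on and together activate the genes of lipid uptake and storage. Lipoprotein lipase frees fatty acids from circulating fat, carrier proteins take them into the cell, acyltransferases build triglyceride, and perilipins coat the droplet in which it is kept until lipases break it down. Several of these genes also work outside fat tissue, in macrophages, endothelium, muscle and skin, where lipid is taken up or held in small droplets.

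CSA-treated cultures held higher signals of part of this set. At day 3 Pparg rose 1.79-fold and the droplet coat gene Plin2 1.26-fold. At day 6 Lpl rose 3.11-fold and Plin2 1.89-fold, while the acyltransferase gene Agpat2 fell by 0.42 on the log2 scale. The rises of Lpl and Plin2 at day 6 passed the test in every other setting tried. The calls of Pparg and Plin2 at day 3 and of Agpat2 at day 6 did not, for example when 1 array was left out. In DMSO, Lpl was 3.08-fold lower at day 6 than at day 3, a fall that did not pass the test under CSA. Adipoq, made by fat cells, and Fabp4, abundant in them, had mean signals over the 8 arrays below the level chosen for testing. RNA was taken from whole cultures, so fewer cells of a type and less RNA per cell cannot be told apart.

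Signals are log2 values of the deposited table, in which 1 unit is a doubling, and levels are not compared between genes because probe sets differ in brightness. Probe sets with a mean log2 signal below 5.37, the 40th percentile, were not tested. This kept 7 of the 10 genes and set aside Fabp4, Cd36 and Adipoq. The test was limma's moderated test on all 8 arrays, with p-values adjusted by the Benjamini-Hochberg method over 27022 probe sets and a threshold of 0.05. Values after ± are limma's standard errors, which rest on the spread within all 4 groups, except for the effect over both days. That effect was fitted with day as a covariate, and its standard errors also hold any difference between the effects of the 2 days. Correlations between the 2 arrays of a group were 0.968 to 0.974, and no array stood apart.

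**Figure D1:**
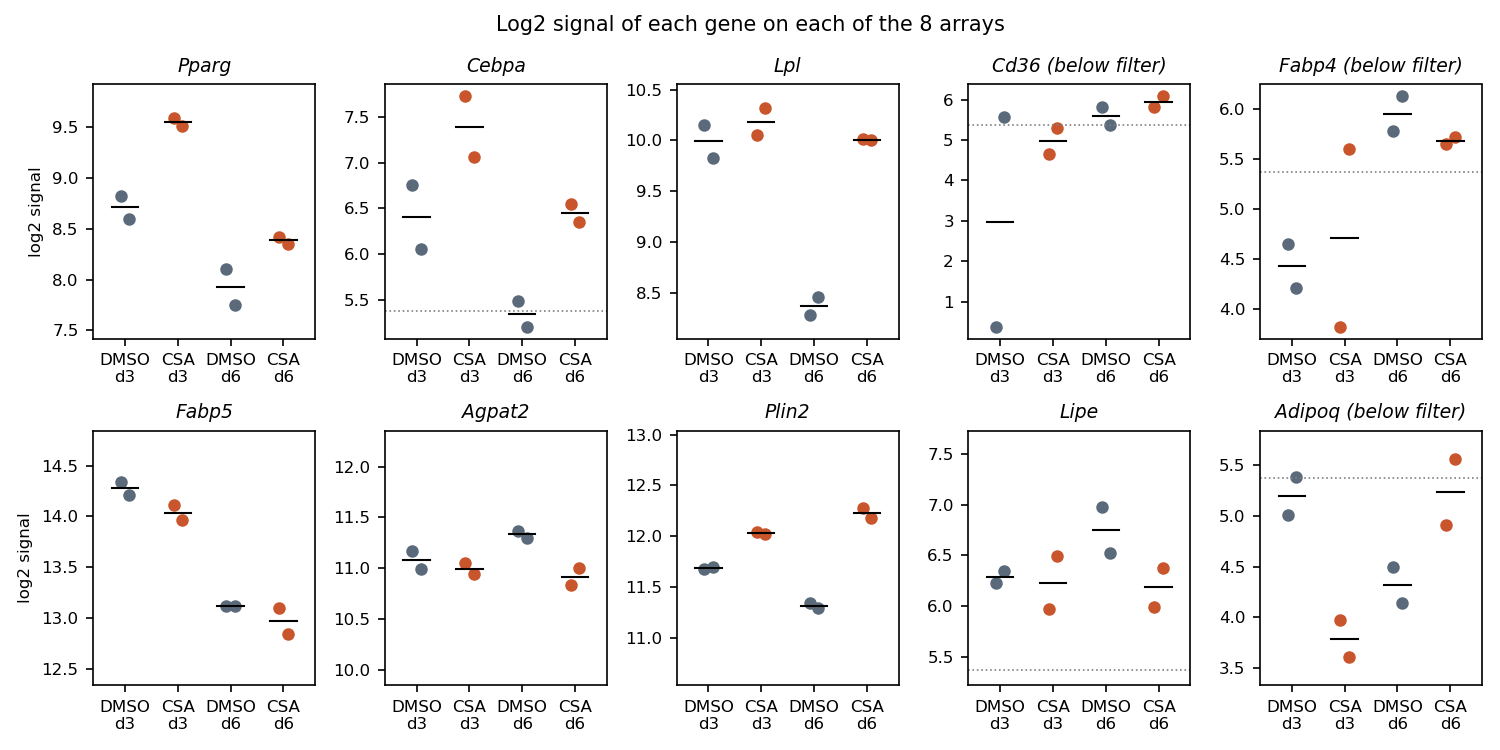
Log2 signal (vertical axis, range set per panel) of the 10 genes on the 8 arrays, with 1 point per array, a bar at the mean of 2 arrays, grey for DMSO and orange for CSA. A dotted line marks the filter at 5.37 where it falls in the panel. Lpl stands out by the DMSO arrays of day 6, at 8.28 and 8.46, against 9.83 to 10.32 on the other 6.

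The transcription factors were the first genes examined. Pparg encodes PPAR gamma, the nuclear receptor that fat cell formation requires. Its log2 signal was 8.82 and 8.60 in DMSO at day 3, 9.59 and 9.51 in CSA at day 3, 8.10 and 7.75 in DMSO at day 6, and 8.42 and 8.35 in CSA at that day. Both CSA arrays lay above both DMSO arrays at each day, and both treatments were lower at day 6. The difference between CSA and DMSO was 0.84 ± 0.16 at day 3 (limma adjusted p = 0.00786) and 0.46 ± 0.16 at day 6 (limma adjusted p = 0.107). The effects at the 2 days were not shown to differ (difference -0.38 ± 0.23, limma adjusted p = 0.412). The call at day 3 ended when CSA replicate 1 or 2 or DMSO replicate 2 of that day was left out (limma adjusted p = 0.0700, 0.0518 and 0.0521) and without the intensity trend in limma's prior variance (0.0637).

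Cebpa encodes C/EBP alpha, the factor that sustains Pparg in fat cells. It gave 6.75 and 6.05 in DMSO and 7.73 and 7.06 in CSA at day 3, then 5.49 and 5.20 in DMSO and 6.55 and 6.35 in CSA at day 6. The CSA arrays were again above the DMSO arrays at each day, while the DMSO arrays of day 6 lay near the filter level. The differences of 1.0 ± 0.40 at day 3 and 1.11 ± 0.40 at day 6 did not pass (limma adjusted p = 0.157 and 0.118). With treatment fitted over both days and day as a covariate, Cebpa was 1.05 ± 0.28 higher with CSA (limma adjusted p = 0.0395), a call that ended in 10 of 16 other settings (highest adjusted p = 0.144).

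The upstream sequences of these regulators are shown because C/EBP factors act on Pparg and because CSA blocks NFAT. Sequences are from RefSeq on build GRCm38.p6, plus strand, and end at the base before the annotated start. Pparg has 3 annotated starts. The last of them lies inside the gene (chr6:115421816-115422065), and the array probe set was not assigned to any one start. Capitals mark TTGCNNAA, a C/EBP site searched on both strands. The Cebpa stretch is chr7:35119043-35119292, and its capitals mark TGGAAA, an NFAT core motif searched on both strands.
Pparg: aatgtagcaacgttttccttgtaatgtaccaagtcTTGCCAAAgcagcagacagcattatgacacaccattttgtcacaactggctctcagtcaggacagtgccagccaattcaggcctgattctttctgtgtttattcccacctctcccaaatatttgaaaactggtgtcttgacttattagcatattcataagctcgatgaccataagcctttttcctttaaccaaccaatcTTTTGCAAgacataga
Cebpa: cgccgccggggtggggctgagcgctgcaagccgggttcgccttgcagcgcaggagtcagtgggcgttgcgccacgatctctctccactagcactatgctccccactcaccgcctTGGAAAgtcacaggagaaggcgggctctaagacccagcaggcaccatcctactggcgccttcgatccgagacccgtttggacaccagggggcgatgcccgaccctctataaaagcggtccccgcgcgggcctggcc

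The Pparg stretch held 2 C/EBP matches, which began at bases -215 and -16 counted from the start. It was printed because it holds them; the windows of the other 2 Pparg starts held 0, as did those of the other 6 genes searched. Windows of the same 250 bases held this motif in 9.56% of 32851 annotated starts. The Cebpa stretch held 1 NFAT core, at base -136, and 18.6% of all windows held one. An NFAT core was also in the windows of Adipoq (base -146) and Cd36 (base -129), which were below the filter and not tested for CSA. The windows of Pparg, Plin2, Agpat2 and Lipe held 0. Promoter windows were in the table for 7 of the 10 genes and not for Lpl, Fabp4 and Fabp5. None of the windows of the 7 genes held the peroxisome proliferator response element (a direct repeat of AGGTCA spaced by 1 base) or the ATF4-CHOP composite site TGATGNAAT on either strand, and of all windows 0.0335% held the first and 0.816% the second. These matches are letters in a window and were not tested as sites.

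Genes that supply fatty acids came next. Lpl encodes lipoprotein lipase, the secreted enzyme that releases fatty acids from lipoproteins. Its log2 signal was 10.15 and 9.83 in DMSO at day 3, 10.05 and 10.32 in CSA at day 3, 8.28 and 8.46 in DMSO at day 6, and 10.01 and 10.00 in CSA at day 6. Day 3 arrays overlapped between treatments, whereas at day 6 the DMSO arrays were lower than all others. CSA differed from DMSO by 0.19 ± 0.14 at day 3 (limma adjusted p = 0.464) and by 1.64 ± 0.14 at day 6 (limma adjusted p = 5.04e-05). The effect at day 6 exceeded that at day 3 by 1.45 ± 0.20 (limma adjusted p = 0.00290, or 0.106 without the intensity trend).

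A second Lpl probe set, dimmer than the first, gave the same order of groups at day 6. It read 6.79 and 4.80 in DMSO and 7.76 and 7.89 in CSA, a difference of 2.03 ± 0.47 (limma adjusted p = 0.0203). At day 3 it read 8.08 and 8.25 in DMSO and 8.13 and 8.11 in CSA, where the test did not pass (limma adjusted p = 0.975). Its difference between the days' effects, 2.07 ± 0.67, did not pass (limma adjusted p = 0.116).

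Cd36, the fatty acid translocase, was below the filter. Its brightest probe set read 0.37 and 5.57 in DMSO and 4.65 and 5.30 in CSA at day 3. At day 6 it read 5.82 and 5.37 in DMSO and 5.81 and 6.09 in CSA. The treatments overlapped at both days, and 1 DMSO array of day 3 was far below the rest. Tested without the filter, the differences were 2.01 ± 1.31 and 0.35 ± 1.31 (limma adjusted p = 0.522 and 0.946). A dimmer Cd36 probe set also overlapped at both days. The dimmest had CSA below at day 3 (1.93 and 3.63 in DMSO, 0 and 0.85 in CSA). At day 6 it had CSA above (3.33 and 5.06 in DMSO, 5.25 and 5.72 in CSA).

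The fatty acid binding proteins carry fatty acids through the cytosol. Fabp4, the form of fat cells, macrophages and capillary endothelium, was below the filter. Its brightest probe set read 4.65 and 4.21 in DMSO and 3.82 and 5.60 in CSA at day 3, and 5.78 and 6.13 in DMSO and 5.65 and 5.72 in CSA at day 6. The treatments overlapped at day 3, and at day 6 both CSA arrays were slightly below both DMSO arrays. All 4 arrays of day 6 were above the filter level. The 3 dimmer Fabp4 probe sets gave no common order: at day 6 the first read 2.36 and 1.42 in DMSO and 4.50 and 5.68 in CSA, with CSA above, and another read 3.64 and 3.67 in DMSO and 0 and 0.90 in CSA, with CSA below. Tested without the filter, the differences were 0.27 ± 0.78 and -0.27 ± 0.78 (limma adjusted p = 0.928 and 0.929).

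Fabp5, the form known from skin, was bright on every array. It read 14.34 and 14.21 in DMSO and 14.11 and 13.96 in CSA at day 3, and 13.12 and 13.12 in DMSO and 13.10 and 12.84 in CSA at day 6. All 4 arrays of day 6 were below all 4 of day 3, and CSA lay slightly below DMSO. The CSA differences of -0.24 ± 0.09 and -0.15 ± 0.09 did not pass (limma adjusted p = 0.116 and 0.327). A second Fabp5 probe set fell with CSA at day 3, by 0.31 on the log2 scale (limma adjusted p = 0.0138), and differed by 0.01 ± 0.07 at day 6 (limma adjusted p = 0.939).

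Agpat2 encodes the acyltransferase that makes phosphatidic acid on the way to triglyceride. It read 11.17 and 10.99 in DMSO and 11.05 and 10.94 in CSA at day 3, and 11.37 and 11.30 in DMSO and 10.83 and 11 in CSA at day 6. Day 3 arrays overlapped, and at day 6 both CSA arrays were below both DMSO arrays. The difference was -0.09 ± 0.09 at day 3 (limma adjusted p = 0.637) and -0.42 ± 0.09 at day 6 (limma adjusted p = 0.0169). The call at day 6 ended without DMSO replicate 1 or 2 or CSA replicate 1 of that day (limma adjusted p = 0.112, 0.0698 and 0.100) and without the intensity trend (0.135).

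Plin2 encodes perilipin 2, the droplet coat protein found in most cell types. It read 11.68 and 11.70 in DMSO and 12.04 and 12.02 in CSA at day 3, and 11.34 and 11.29 in DMSO and 12.28 and 12.18 in CSA at day 6. The 2 arrays of each group lay close together, and CSA was above DMSO on every array at both days. Plin2 rose by 0.34 ± 0.07 at day 3 (limma adjusted p = 0.0103) and by 0.91 ± 0.07 at day 6 (limma adjusted p = 2.22e-05). The effect was larger at day 6 by 0.58 ± 0.10 (limma adjusted p = 0.00897, or 0.150 without the intensity trend). At day 3 the call ended without CSA replicate 1 or 2 (limma adjusted p = 0.0788 and 0.0691) and without the intensity trend (0.124).

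Lipe encodes hormone-sensitive lipase, which breaks down stored fat. Its brightest probe set read 6.23 and 6.35 in DMSO and 5.97 and 6.49 in CSA at day 3, and 6.98 and 6.52 in DMSO and 5.99 and 6.38 in CSA at day 6. The CSA arrays were below the DMSO arrays at day 6 alone, and neither difference passed (-0.06 ± 0.39 and -0.56 ± 0.39, limma adjusted p = 0.952 and 0.427). Adipoq encodes adiponectin, a hormone made by fat cells, and was below the filter. It read 5.01 and 5.38 in DMSO and 3.97 and 3.61 in CSA at day 3, and 4.50 and 4.14 in DMSO and 4.91 and 5.56 in CSA at day 6. The order of the treatments was opposite at the 2 days, and without the filter the differences were -1.41 ± 0.86 and 0.92 ± 0.86 (limma adjusted p = 0.485 and 0.687).

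**Figure D2:**
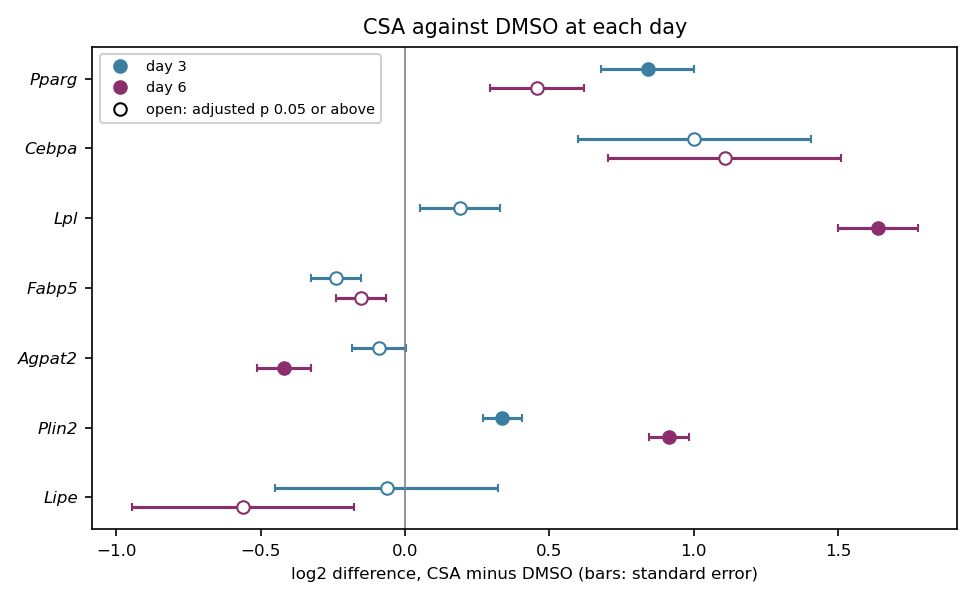
Log2 difference between CSA and DMSO (horizontal axis) at day 3 and day 6 for the 7 tested genes, with limma's standard error as bars and filled points where the adjusted p was below 0.05. Plin2 is filled at both days, Pparg at day 3, and Lpl and Agpat2 at day 6, with Lpl at 1.64 the furthest from 0.

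Calls were then counted over the set, whose genes were chosen with earlier results of these data known. A count above the share of all genes is therefore not a test of the set. At day 3, 2 of the 7 tested genes rose with CSA and none fell by the test. Of 12529 tested genes 7.14% rose and 5.52% fell (12.7% either way, or 9.58% of probe sets). At day 6, 2 of 7 rose and 1 fell, where 6.41% of all genes rose and 6.11% fell (12.5% either way, or 9.67% of probe sets). The arrays of CSA and DMSO did not overlap for 4 of the 7 at day 3 and for 7 of 7 at day 6, which also held for 56.5% and 58.1% of all genes. The median difference of the 7 was 0.19 at day 3 and 0.46 at day 6, and that of all genes was -0.00 and -0.01. The test called the effect at day 6 higher than that at day 3 for 2 of 7, Lpl and Plin2. This interaction was called higher for 2.36% of all genes and lower for 3.43% (5.79% either way, or 4.23% of probe sets). Over both days with day as a covariate, 4 of 7 were higher with CSA, against 5.62% of all genes (4.65% lower, 10.3% either way, or 7.75% of probe sets), and these were Plin2 at 0.63 ± 0.10, Pparg at 0.65 ± 0.13, Lpl at 0.91 ± 0.24 and Cebpa at 1.05 ± 0.28 (limma adjusted p = 0.00355, 0.0127, 0.0368 and 0.0395). That fit has 1 effect for both days, which the values of Lpl and Plin2 by day do not follow, and the Lpl call ended in 9 of 17 other settings (highest adjusted p = 0.161).

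The day course was then compared within each treatment. In DMSO, limma called 4 of 7 genes lower from day 3 to day 6, while 19.6% of all genes fell and 26.1% rose (45.7% either way, or 40.6% of probe sets). The arrays of the 2 days did not overlap for 7 of 7 genes in DMSO and 5 of 7 under CSA, against 73% and 69.1% of all genes. Lpl changed by -1.62 ± 0.14 (limma adjusted p = 5.40e-06), Fabp5 by -1.16 ± 0.09 (2.29e-06), Pparg by -0.78 ± 0.16 (0.00244) and Plin2 by -0.37 ± 0.07 (0.00112). The fall of Lpl in DMSO and its rise with CSA at day 6 both rest on the same 2 DMSO arrays of day 6. Cebpa at -1.05 ± 0.40, Agpat2 at 0.25 ± 0.09 and Lipe at 0.46 ± 0.39 did not pass (limma adjusted p = 0.0577, 0.0533 and 0.380). Markers of cell types moved over the same days: in DMSO 8 of 8 epithelial and 9 of 10 fibroblast markers rose, 1 fibroblast marker fell, and of 7 keratinocyte markers 1 rose and 3 fell. Their part in the day course of these genes was not tested.

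Under CSA, Fabp5 fell by 1.07 on the log2 scale and Pparg by 1.17 (limma adjusted p = 9.11e-06 and 0.000309), which made 2 of 7 against 15.8% of all genes (36.1% either way, or 30.9% of probe sets). Plin2 rose by 0.20 ± 0.07 (limma adjusted p = 0.0421), 1 of 7 against 20.2%, a call that ended in 9 of 18 other settings and stood at -0.01 after median centring. Lpl changed by -0.18 ± 0.14 under CSA (limma adjusted p = 0.375), with both arrays of day 6 below both of day 3. After median centring the Lpl difference was -0.39 (limma adjusted p = 0.0507), so a fall under CSA is not excluded. The other 3, Cebpa, Agpat2 and Lipe, differed by -0.95 ± 0.40, -0.08 ± 0.09 and -0.04 ± 0.39 and did not pass (limma adjusted p = 0.101, 0.568 and 0.951).

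The median of the tested probe sets was 8.22 to 8.24 on the day 3 arrays and 8.44 to 8.47 on the day 6 arrays. The median day difference of all tested genes was 0.08 in each treatment, and median centring moved it to -0.17 in DMSO and -0.13 under CSA. The falls of Lpl, Fabp5, Pparg and Plin2 in DMSO and of Fabp5 and Pparg under CSA kept their direction and stayed past the threshold under each scaling. Other calls depended on the scaling: Cebpa passed as lower with quantile normalization and with median centring in DMSO (limma adjusted p = 0.0407 and 0.0220) and under CSA (0.0367 and 0.0454). Agpat2 passed as higher in DMSO with quantile normalization (limma adjusted p = 0.0369) and as lower under CSA with median centring (0.0334).

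**Figure D3:**
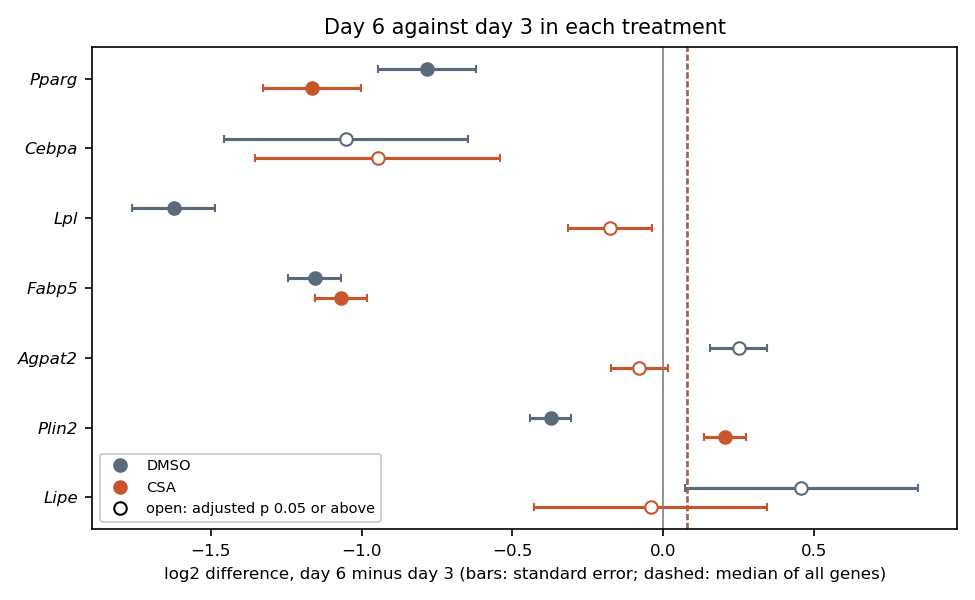
Log2 difference between day 6 and day 3 (horizontal axis) in DMSO and under CSA for the 7 tested genes, with limma's standard error as bars, filled points where the adjusted p was below 0.05, and dashed lines at the median of all genes, 0.08. Fabp5 and Pparg are below 0 in both treatments, Lpl is at -1.62 in DMSO and -0.18 under CSA, and Plin2 lies on opposite sides of 0.

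Other genes of the pathway were read from 9 lists, 128 genes in all, of which 116 had a probe set. Of 87 tested, 9 rose and 3 fell with CSA at day 3 and 12 rose and 4 fell at day 6. Over all genes 7.14% rose and 5.52% fell at day 3, and 6.41% rose and 6.11% fell at day 6, so the counts of the lists at day 3 were near that share. The median difference was 0.03 and 0.11, beside -0.00 and -0.01 over all genes. Most tested genes of the lists did not pass, 75 at day 3 and 71 at day 6. The effect of CSA was higher at day 6 than at day 3 for Abhd5 and Car3 and lower for Acsl6, Gata2 and Cpt2 (limma adjusted p = 0.0258, 0.0378, 0.0110, 0.0343 and 0.0329); Cpt2 was picked after its values were seen. These 5 of 87 are near the 5.79% of all genes that passed this test.

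In the list of lipoprotein lipase partners 2 of 8 rose at day 3 and 1 at day 6, beside 7.14% and 6.41% of all genes. Vldlr, the receptor that binds triglyceride-rich lipoproteins, read 7.53 and 7.08 in DMSO and 8.74 and 9.08 in CSA at day 3, and 8.46 and 8.64 in DMSO and 10.11 and 10.11 in CSA at day 6. It rose by 1.60 ± 0.18 and 1.56 ± 0.18 (limma adjusted p = 0.000379 and 0.000400), and no CSA array overlapped DMSO. Sel1l, an ER protein that lipoprotein lipase needs to leave the ER and that also serves the degradation of misfolded proteins, rose by 0.77 ± 0.10 at day 3 (limma adjusted p = 0.00107) and was at 0.31 ± 0.10 at day 6 (limma adjusted p = 0.0872).

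Of 11 genes of fatty acid uptake and activation, 3 rose and 1 fell at each day. The shares of all genes were 7.14% higher and 5.52% lower at day 3, and 6.41% and 6.11% at day 6. The caveolin gene Cav1 rose by 0.40 ± 0.07 and 0.59 ± 0.07 (limma adjusted p = 0.00451 and 0.000426). Fabp7, the brain form of the binding proteins, rose by 1.21 ± 0.16 and 0.85 ± 0.16 (limma adjusted p = 0.00110 and 0.00798). Fabp3, the heart form, was picked after its values were seen, as a relative of Fabp4 and Fabp5, and rose by 0.35 ± 0.09 and 0.61 ± 0.09 (limma adjusted p = 0.0292 and 0.00151). The acyl-CoA synthetase gene Acsl6 went the other way, from 9.87 and 9.76 in DMSO to 6.80 and 7.53 in CSA at day 6, a change of -2.65 ± 0.19 after -1.11 ± 0.19 at day 3 (limma adjusted p = 1.95e-05 and 0.00426).

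Droplet, synthesis and lipolysis lists are small, and their counts can be read only beside the 12.7% of all genes called at day 3 and 12.5% at day 6. Of 6 lipid droplet genes 1 rose at each day, Plin3, another droplet coat protein, by 0.63 ± 0.13 at day 3 (limma adjusted p = 0.0114) and the seipin gene Bscl2 by 0.35 ± 0.09 at day 6 (limma adjusted p = 0.0342). Of 13 triglyceride synthesis genes Dgat2, which adds the last fatty acid, fell by 0.56 on the log2 scale at day 3 (limma adjusted p = 0.0231), and limma called 0 at day 6 (1 at an unadjusted p under 0.05). Of 8 lipolysis genes Abhd5, the coactivator of adipose triglyceride lipase, rose by 0.62 ± 0.08 at day 6 (limma adjusted p = 0.000663), and limma called 0 at day 3 (2 at an unadjusted p under 0.05).

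Few regulators of fat cell formation were called. Beside them, 7.14% of all genes rose and 5.52% fell at day 3, and 6.41% rose and 6.11% fell at day 6. Of 13 activators 1 rose at each day and 0 fell, which is near those shares. Srebf1, a factor for lipid synthesis, rose by 0.47 ± 0.09 at day 3 and the early factor Cebpd by 0.57 ± 0.15 at day 6 (limma adjusted p = 0.00599 and 0.0362). Among 8 inhibitors Ddit3, whose product CHOP binds C/EBP factors and blocks them, rose at both days by 1.39 ± 0.15 and 1.94 ± 0.15 (limma adjusted p = 0.000289 and 2.69e-05). At day 6 Nr2f2 rose by 0.47 ± 0.12 and Gata2 fell by 0.48 on the log2 scale (limma adjusted p = 0.0339 and 0.0340).

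Of 10 tested genes of mature fat cells limma called 0 at day 3 (1 at an unadjusted p under 0.05), and 2 rose at day 6. Among all genes 12.7% were called at day 3, and 6.41% rose at day 6. The desaturase gene Scd1 rose by 0.44 ± 0.06 (limma adjusted p = 0.00140). Car3, a carbonic anhydrase abundant in fat and muscle, read 8.75 and 8.29 in DMSO and 8.48 and 8.15 in CSA at day 3, and 6.12 and 5.60 in DMSO and 7.51 and 7.12 in CSA at day 6. Its DMSO arrays of day 6 were the lowest, as for Lpl, and it rose with CSA at day 6 by 1.45 ± 0.27 (limma adjusted p = 0.00734).

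Of 10 fatty acid oxidation genes 1 rose and 1 fell at day 3, and 1 rose and 2 fell at day 6. Among all genes 7.14% rose and 5.52% fell at day 3, and 6.41% rose and 6.11% fell at day 6. The acyl-CoA thioesterase gene Acot2 rose by 0.88 ± 0.12 and 0.47 ± 0.12 (limma adjusted p = 0.00109 and 0.0301), while its close relative Acot1 was at -0.47 ± 0.14 and -0.53 ± 0.14 (limma adjusted p = 0.0596 and 0.0381). The 2 genes are near-identical copies, so their probe sets may read both and their values are uncertain. The oxidation enzyme gene Hadhb fell by 0.45 on the log2 scale at day 3 (limma adjusted p = 0.0105). The carnitine carrier gene Slc25a20, picked after its values were seen, fell by 0.38 at day 6 (limma adjusted p = 0.0407).

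**Figure D4:**
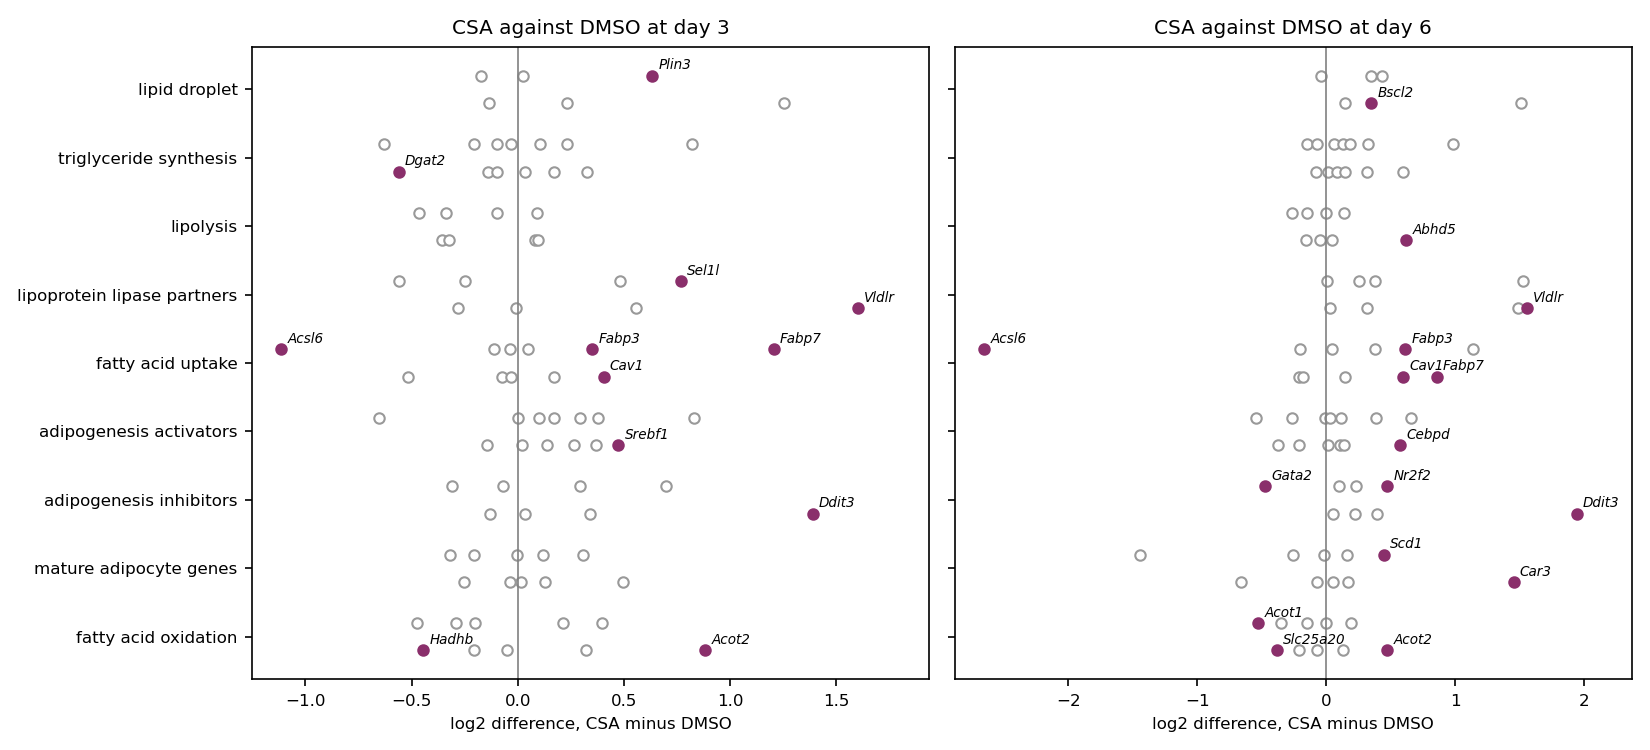
Log2 difference between CSA and DMSO (horizontal axis) at day 3 (left) and day 6 (right) for the 87 tested genes of 9 lists (vertical axis, with points offset for legibility), filled and named where the adjusted p was below 0.05. Most points are open; Vldlr and Ddit3 lie on the right at both days and Acsl6 on the left, at -2.65 at day 6.

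The genes whose log2 signals followed Lpl most closely over the 8 arrays, among 12528 tested genes, were Gpm6a, Fbxo9, Msrb2, Ap4s1 and Cdc42ep2, with Pearson's r from 0.98 to 0.98. This is a description over 4 groups of 2 arrays that share day and treatment. Gpm6a, a neuronal membrane glycoprotein gene, read 7.87 and 7.51 in DMSO and 8.01 and 8.07 in CSA at day 3, and 5.91 and 5.73 in DMSO and 8.01 and 7.60 in CSA at day 6. Of the tested genes of fat storage, Cebpa and Plin2 had an r with Lpl of 0.83 and 0.82, Pparg 0.74 and Fabp5 0.50, and Agpat2 and Lipe had -0.83 and -0.72.

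Marker genes of cell types that use these genes were read on the same arrays. Of 7 further fat cell markers with a probe set 5 were below the filter (Cidec, Lep, Retn, Aqp7 and Pck1), and the summed signal of the 7, as anti-logged units, was 456 to 550 in DMSO and 384 to 531 in CSA at day 3, then 189 to 269 in DMSO and 332 to 403 in CSA at day 6. Most of the movement of this sum was Car3, described above: in a sum without it, made after its values were seen, the other 6 held 120 to 142 and 99 to 175 at day 3 and 140 to 200 and 193 to 221 at day 6, DMSO first. Of 12 macrophage markers 7 were below the filter, among them Ptprc, Itgam and Tyrobp, with sums of 679 to 692 and 603 to 616 at day 3 and of 741 to 780 and 879 to 915 at day 6, DMSO first. Of 10 endothelial markers 5 were below it, among them Pecam1 and Cdh5, with sums of 2162 to 2214 and 2092 to 2236, then 2345 to 2500 and 2796 to 2964. At day 6 both sums were higher with CSA, while the median difference of the 5 tested markers was 0.00 for macrophages, with 0 called by limma and 0 at an unadjusted p under 0.05, and 0.02 for endothelium. The endothelial markers called were Tek, which rose by 0.46 ± 0.10, and Flt1, which fell by 0.69 on the log2 scale (limma adjusted p = 0.0142 and 0.0362). Without Tek the endothelial sums of day 6 were 1027 to 1046 in DMSO and 866 to 1080 in CSA, which overlap. Tek and Flt1 were picked after their values were seen.

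Keratinocyte and smooth muscle markers were called higher with CSA at day 6, where 6.41% of all genes were higher and 6.11% lower. At day 3 these shares were 7.14% and 5.52%. Of 7 tested keratinocyte markers 4 rose with CSA at day 6, with sums of 8038 to 8334 in DMSO and 11612 to 12425 in CSA, after 10702 to 11124 and 11098 to 11706 at day 3, where 2 rose and 1 fell. Krt5 and Trp63 of the keratinocyte list were below the filter. Krt14 of that list was bright, at 12 and 11.87 in DMSO and 12.50 and 12.63 in CSA at day 3. At day 6 it read 11.75 and 11.62 in DMSO and 11.96 and 11.89 in CSA. Of 5 tested smooth muscle markers 4 rose at day 6, with sums of 6755 to 7306 and 12058 to 12545, after 7930 to 8193 and 7764 to 7879 at day 3. Cnn1, Myh11 and Lmod1 of that list were below the filter.

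Epithelial and fibroblast markers all passed the filter, and those called at day 6 were lower with CSA. Over all genes 6.41% were higher and 6.11% lower at day 6, and 7.14% were higher and 5.52% lower at day 3. Of 8 epithelial markers 4 fell, with sums of 41479 to 43825 in DMSO and 31389 to 31587 in CSA, against 22583 to 24079 and 27513 to 27794 at day 3, where 4 rose and 1 fell. Krt8, the brightest of the 8, weighs most in these sums. It read 13.66 and 13.78 in DMSO and 14.09 and 14.04 in CSA at day 3. At day 6 it read 14.49 and 14.35 in DMSO and 13.91 and 13.87 in CSA. Differences were above 0 for 5 of the 8 at day 3 and for 2 at day 6. Of 10 fibroblast markers 2 fell, with sums of 39006 to 39506 and 32120 to 32213, against 22640 to 24402 and 22358 to 22634 at day 3, where 1 rose and 2 fell. Of 5 tested pluripotency markers 1 fell, with sums of 1862 to 2313 and 1192 to 1334, against 1422 to 1452 and 1378 to 1708 at day 3; Sox2, Nanog, Zfp42, Tdgf1 and Dppa3 were below the filter. The part of any of these cell types in the differences of Lpl, Plin2, Pparg and Agpat2 was not tested.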

How the data were processed

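RNA from 8 cultures was measured on Affymetrix 3' expression arrays. The values deposited by the authors are log2 signals of 45037 probe sets. Per the submitters' processing notes these came from MAS5, whose version and settings the sources do not state. Array means, trimmed by 2% at each end, were 496.8 to 497.5 after anti-logging, and 110 to 259 values per array were 0, so differences of dim probe sets are unreliable.

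Groups came from the sample labels. Limma 3.58.1 in R 4.3.3 fitted 1 mean per group to all 8 arrays (4 residual degrees of freedom) with an intensity trend, tested two-sided; the effect over both days had day as a covariate. Benjamini-Hochberg adjustment ran over 27022 probe sets at or above the 40th percentile. The pipeline was tested on simulated data. The platform annotation names a single gene for 34945 probe sets and several genes for 932, and 9160 are unlisted; 34741 matched RefSeq by Entrez ID with 0 symbols changed. Each gene was read from its brightest probe set.

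The genes named are the 10, up to 3 genes per pathway list with the smallest adjusted p for CSA against DMSO at either day, and 5 genes most like Lpl. The genes and lists were chosen with earlier results of these data known. Same-numbered arrays of different groups did not deviate together (correlations -0.003 to 0.034), so replicate numbers were not used as pairs. The series design text calls the repeats biological and independent. The number of arrays limits precision.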

Additional observations from a re-analysis of the deposited data

Results flagged for a closer look

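For 2 of the 7 tested genes the effect of CSA differed between the days by the interaction test. Among all tested genes 2.36% were higher and 3.43% lower in this test (5.79% either way). For Lpl the effect at day 6 exceeded that at day 3 by 1.45 on the log2 scale, and for Plin2 by 0.58 (limma adjusted p = 0.00290 and 0.00897). Both calls ended without the intensity trend (limma adjusted p = 0.106 and 0.150). A second Lpl probe set did not pass (limma adjusted p = 0.116). All 4 CSA arrays of Plin2 were above the DMSO arrays of their day, whereas for Lpl this held at day 6 and not at day 3.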

How the results depend on the processing

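The rises of Lpl and Plin2 with CSA at day 6 kept their direction and their side of the threshold in each of 18 other settings (limma adjusted p from 1.35e-05 to 0.0205 and from 6.28e-06 to 0.0205), as did the falls of Lpl, Fabp5, Pparg and Plin2 in DMSO. Without the intensity trend, of the 7 genes limma called 0 for CSA at day 3, 0 for the interaction and 0 over both days (3, 2 and 5 at an unadjusted p under 0.05), and 442 probe sets passed at day 3, 694 at day 6, 544 over both days and 0 for the interaction (4287 at an unadjusted p under 0.05), in place of 2588, 2612, 2093 and 1144. Leaving out 1 array gave 0 to 2 of the 7 genes at day 3 and 2 to 4 over both days. It gave 1076 to 2641 probe sets at day 3, 1112 to 2848 at day 6, 5417 to 8822 for the days under CSA, 390 to 994 for the interaction and 1218 to 1604 over both days.

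Some directions turned. With median centring Plin2 between the days under CSA was -0.01 and Agpat2 between the days in DMSO was 0.00. When all probe sets of a gene were averaged, Lipe was 0.37 for CSA at day 6, -0.49 between the days in DMSO, 0.72 under CSA and 1.20 for the interaction. That average takes in a second Lipe probe set, which was below the filter. It read 4.90 and 5.90 in DMSO and 1.79 and 5.79 in CSA at day 3. At day 6 it read 5.14 and 2.79 in DMSO and 4.86 and 5.67 in CSA. The interaction of Cebpa was -0.12 after quantile normalization and -0.07 with 32 added to the signal. Leaving out 1 array, Lipe ranged from -0.32 to 0.19 for CSA at day 3 and from -0.30 to 0.22 between the days under CSA, Agpat2 there from -0.17 to 0.01, and the interactions of Cebpa and Fabp5 from -0.24 to 0.45 and from -0.04 to 0.22. The cause was not tested.

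With the replicate number as a block, Fabp5 at day 3, Cebpa between the days in DMSO and Fabp5 over both days passed (limma adjusted p = 0.0357, 0.0428 and 0.0493), and Lpl over both days did not (0.0567). No other call of the 7 genes changed with the block, and 2724 probe sets passed at day 3 and 2742 at day 6.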
